A study of Mus musculus with 3 samples.

Results

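The type 2 cytokine locus on mouse chromosome 11 was examined in ILC2s (group 2 innate lymphoid cells). These lymphocytes reside in tissues, carry no rearranged antigen receptor and secrete type 2 cytokines. The members were 10 chosen genes in or beside this locus, out of the 27179 gene IDs of the count table. Position alone did not set them, since other genes within their span, such as Irf1 and Slc22a21, were left out. They are 5 cytokine genes, Il3, Csf2, Il4, Il5 and Il13, and 5 neighbours that encode no cytokine, Rad50, Kif3a, P4ha2, Slc22a4 and Slc22a5. The study comprised 3 libraries of a single group, ILC2s of wild-type C57BL/6 mice, and its design text names 3 mice. No treatment, age or tissue is given in the sources used here, and no mutant or treated group was available for comparison. Cells were gated on CD45, CD90.2, CD127 and KLRG1, and cells bearing B220, NK1.1, CD11c, CD11b or the T cell antigens CD8, CD5 and CD3 were gated out. Libraries 1, 2 and 3 follow the sample numbers and held 22112425, 17819551 and 26374248 counts.

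The locus joins genes of the adaptive and innate type 2 response. IL-4, IL-13 and IL-5 drive antibody class switching, mucus production and eosinophil growth, whereas IL-3 and GM-CSF (the product of Csf2) act on myeloid cells, mast cells and basophils. In T helper 2 cells, a locus control region inside introns of Rad50 acts on Il4 and Il13, and the transcription factor GATA3 is needed for the locus to open. ILC2s use the same locus and are best known as sources of IL-5 and IL-13.

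In mm10, the members lie in the order Kif3a, Il4, Il13, Rad50, Il5, Slc22a5, Slc22a4, P4ha2, Csf2 and Il3, from position 53565701 to 54267279 of chromosome 11, a span of 701579 bases. Kif3a, Il4, Il13, Rad50 and Il5 are packed with gaps of 8.21 to 14.8 kb. A gap of 139 kb, which holds Irf1, separates Il5 from Slc22a5, and 115.6 kb separate P4ha2 from Csf2. Csf2 and Il3 are 15.2 kb apart. The reference also places the long noncoding RNA genes Gm12223 across Csf2, LOC115487722 across Il3, A430108G06Rik over part of Kif3a and Gm30927 over part of Slc22a4. The library kit does not mark strand, so reads of these overlapping genes cannot be told apart from those of the members.

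The sequences just before the starts of Il4, Il13, Il5 and Il3 are shown because these cytokine genes of 1 locus differed widely in transcript level. They are from RefSeq (GRCm38.p6, which mm10 corresponds to), hold the 250 bases before the annotated start, and are written 5′ to 3′ on the gene's strand. Il4 (chr11:53618666-53618915), Il13 (chr11:53634703-53634952) and Il3 (chr11:54267280-54267529) are on the minus strand, and Il5 (chr11:53720544-53720793) is on the plus strand. Capitals mark every match, on either strand, to GATA, to the AP-1 motif TGANTCA, to the NFAT core GGAAA, to the STAT motif TTCNNNGAA or to the TATA box TATAAA, so a match on the other strand appears as its reverse complement.
Il4: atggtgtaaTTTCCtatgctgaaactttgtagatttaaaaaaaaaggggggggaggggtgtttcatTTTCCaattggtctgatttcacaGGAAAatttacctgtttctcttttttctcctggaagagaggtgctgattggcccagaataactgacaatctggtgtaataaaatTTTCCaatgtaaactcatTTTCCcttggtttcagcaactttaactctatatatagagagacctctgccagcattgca
Il13: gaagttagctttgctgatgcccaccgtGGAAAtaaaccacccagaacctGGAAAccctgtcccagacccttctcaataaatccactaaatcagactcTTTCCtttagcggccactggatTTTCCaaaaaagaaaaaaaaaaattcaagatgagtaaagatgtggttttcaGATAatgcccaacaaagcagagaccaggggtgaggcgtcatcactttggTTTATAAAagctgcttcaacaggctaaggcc
Il5: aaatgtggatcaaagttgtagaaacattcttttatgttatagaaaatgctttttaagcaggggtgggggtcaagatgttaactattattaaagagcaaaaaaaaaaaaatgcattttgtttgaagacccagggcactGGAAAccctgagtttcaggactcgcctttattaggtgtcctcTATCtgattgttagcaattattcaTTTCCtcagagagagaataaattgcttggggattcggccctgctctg
Il3: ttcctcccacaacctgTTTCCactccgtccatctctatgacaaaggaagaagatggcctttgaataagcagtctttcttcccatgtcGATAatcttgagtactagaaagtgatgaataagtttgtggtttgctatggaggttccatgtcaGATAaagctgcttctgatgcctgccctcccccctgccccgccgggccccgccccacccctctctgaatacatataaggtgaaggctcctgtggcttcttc

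The Il4 window shown held 5 matches to GGAAA and 0 to GATA. RefSeq gives Il4 another start at position 53617338, and that window held 0 matches to GGAAA and 3 to GATA, so the count for this gene depends on the start taken. The Il13 window held 4 matches to GGAAA, 1 to GATA and 2 overlapping matches to TATAAA, of which the one on the gene's strand covers bases 29 to 24 before the start. In the Il5 window there were 2 matches to GGAAA and 1 to GATA, and in the Il3 window 1 and 2. TGANTCA and TTCNNNGAA had no match in any of the 4. Among 32851 RefSeq windows of this length, 55.6% held GGAAA, 53.6% GATA, 12.4% TATAAA, 7.02% TTCNNNGAA and 6.75% TGANTCA. The first pair is thus common to more windows than not, and a match is a run of letters rather than a binding site. The RefSeq start of Csf2 lies 232 bases from the GENCODE start of that gene, so its window is not shown; it held 3 matches to GATA and 2 to GGAAA. Windows were found for 9 of the 10 members (not Rad50). The windows of Slc22a4 and Slc22a5 held none of the 5 motifs, that of Kif3a held 1 GGAAA and that of P4ha2 held 1 GATA.

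Of the 10 members, 7 were detected, meaning that they reached 1 CPM (a count scaled to the size of its library) in every library. These were Csf2, Il5, Il4, Il13, Rad50, Kif3a and P4ha2. Over all genes of the table the share detected was 31.1%, and over protein-coding genes 38.0%. The 5 cytokine genes took 1.10%, 1.20% and 0.731% of all counts in libraries 1, 2 and 3, with 95% Wilson intervals of 1.10% to 1.11%, 1.20% to 1.21% and 0.728% to 0.735%. The intervals cover counting error only, since reads without molecular identifiers are not independent molecules. Csf2 supplied 65.9% to 75.9% of these cytokine counts, Il5 11.4% to 26.0%, Il4 7.30% to 12.4%, Il13 0.163% to 0.302% and Il3 0.00327% to 0.189%.

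**Figure D1:**
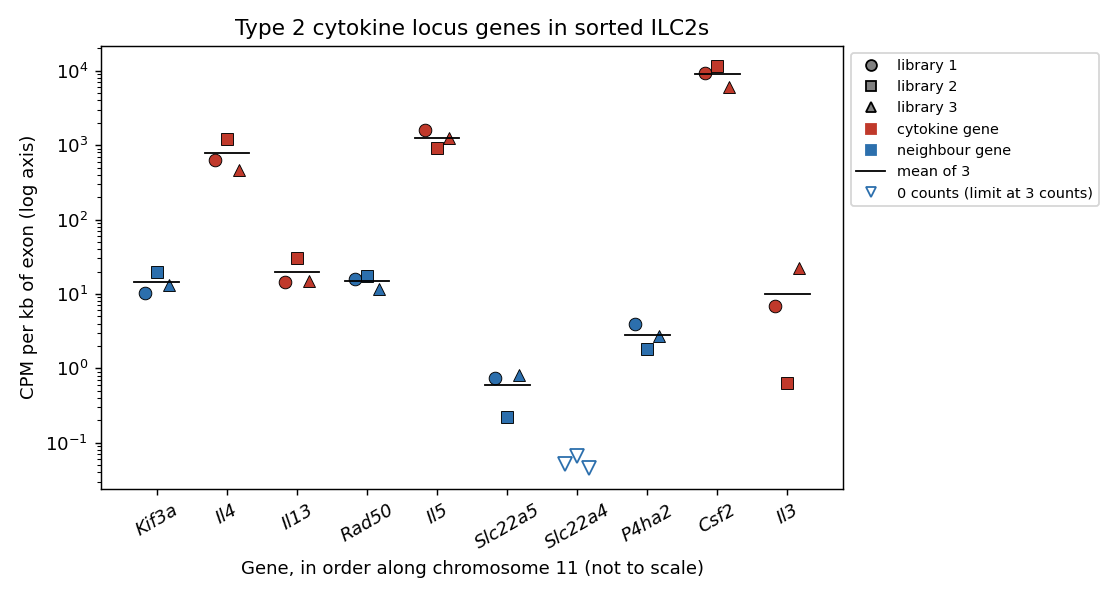
Level of the 10 members in each of the 3 libraries, as CPM per kb of exon on a log axis, in chromosome order. Csf2, Il5 and Il4 stand far above the other members, Il13 lies at the level of Rad50 and Kif3a, and open triangles for Slc22a4 mark the limit that 0 counts allow.

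Levels of different genes were compared as CPM divided by exon length in kb, here CPM per kb. Csf2, which encodes the myeloid growth factor GM-CSF, had 9333, 11563 and 6096 CPM per kb in libraries 1, 2 and 3 (8997 ± 2749; here and below mean ± SD, n = 3). It ranked 2nd among 8049 detected genes with a known exon length. All 3 libraries placed it above every other member. Il5, the eosinophil growth factor, had 1613, 904 and 1251 CPM per kb (1256 ± 355, rank 39). Il4, which directs IgE and IgG1 switching in B cells, had 640, 1226 and 462 CPM per kb (776 ± 400, rank 64). The ranges of Il4 and Il5 overlapped, with Il5 the higher in libraries 1 and 3 and Il4 the higher in library 2.

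Il13, whose product drives mucus secretion and smooth muscle contraction, was far lower than its neighbour Il4. It had 14.5, 30.5 and 15.0 CPM per kb (20.0 ± 9.08, rank 2089), from 397, 646 and 471 counts. Il4 exceeded Il13 44.0-fold, 40.2-fold and 30.8-fold in libraries 1, 2 and 3, although the genes lie 12.7 kb apart. On the scale of log2(CPM per kb + 0.5) the difference was 5.21 ± 0.27 and had 1 direction in 3 of 3 libraries (exact sign-flip p = 0.25, adjusted p = 0.296 over 45 pairs). Il5 exceeded Il13 by 5.98 ± 0.99 on that scale, also in 3 of 3 libraries and with the same p values in the exact sign-flip test. A p of 0.25 is the smallest that 3 libraries allow in this two-sided test, so no pair of members can pass 0.05.

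Il3, a growth factor of mast cells and basophils, was by its mean the lowest of the cytokine genes, and the least even. It had 98, 7 and 365 counts, which correspond to 4.32 CPM (95% Wilson interval 3.55 to 5.27), 0.398 CPM (0.193 to 0.822) and 14.0 CPM (12.6 to 15.5). The 3 intervals do not overlap, and the highest library lay 35.2-fold above the lowest. The intervals treat reads as independent molecules, which the amplification in this kit does not ensure, so they understate the error of the 7 counts. Csf2, its neighbour at 15.2 kb, exceeded it 1358-fold, 18269-fold and 274-fold per kb in libraries 1, 2 and 3.

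Of the neighbours, Rad50, a subunit of the DNA break repair complex with MRE11 and NBS1, had 16.0, 17.4 and 11.7 CPM per kb (15.1 ± 2.96). Kif3a, a kinesin motor subunit needed for cilia, had 10.2, 19.6 and 13.1 (14.3 ± 4.79). P4ha2, a catalytic subunit of collagen prolyl 4-hydroxylase, had 3.92, 1.83 and 2.76 (2.84 ± 1.05). Among all detected genes the median was 4.84 to 5.69 CPM per kb, so Rad50 and Kif3a lay above it and P4ha2 below it in every library. Slc22a5, the carnitine transporter OCTN2, had 51, 12 and 66 counts, or 0.733, 0.222 and 0.824 CPM per kb, and missed the detection limit in library 2 only.

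Slc22a4, which encodes the ergothioneine transporter OCTN1, had 0 counts in all 3 libraries. At these depths a count of 0 allows up to 0.132, 0.171 and 0.115 CPM in libraries 1, 2 and 3, or 0.0451 to 0.0668 CPM per kb for this gene. Against that limit of 3 counts per library, its paralogue Slc22a5 was at least 14.1-fold, 3.33-fold and 18.3-fold higher per kb. The counting could divide reads between these paralogues and the third family member of the window, Slc22a21 (0, 53 and 45 counts).

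As a class, the cytokine genes had a median of 640, 904 and 462 CPM per kb in libraries 1, 2 and 3, against 3.92, 1.83 and 2.76 for the 5 neighbours. The median neighbour was P4ha2 in each library. This median does not depend on how far Slc22a4 and Slc22a5 lie below P4ha2, but it does depend on their being among the 5. Genes within the span that were left out of the class lay on either side of it. Irf1, at 28.9 CPM per kb on average, was above each of the 5 neighbours. Slc22a21 (0.433), 4933405E24Rik (0.284) and Pdlim4 (0.0812) were below P4ha2, and Gm12216 had no exon length. The difference of medians was 7.64 ± 0.83 on the log2(CPM per kb + 0.5) scale, with the cytokine genes higher in 3 of 3 libraries. The classes nevertheless overlapped. Of 25 pairs of a cytokine gene with a neighbour, 21 had the cytokine gene higher in all 3 libraries, and the other 4 involved Il13 or Il3. The number of cytokine genes above the highest neighbour was 3, 4 and 5 in libraries 1, 2 and 3. Without division by length the difference of medians was 5.61 ± 1.08, and with only the detected members it was 6.13 ± 0.38.

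In order of mean CPM per kb the members were Csf2, Il5, Il4, Il13, Rad50, Kif3a, Il3, P4ha2, Slc22a5 and Slc22a4. Csf2 differed from Il5 by 2.83 ± 0.74, Il4 from Il13 by 5.21 ± 0.27, P4ha2 from Slc22a5 by 1.61 ± 0.28 and Slc22a5 from Slc22a4 by 1.08 ± 0.48, each beyond its SD and in 3 of 3 libraries. The last of these rests on the added 0.5, since Slc22a4 was at 0. Neighbours in this order that did not differ beyond their spread were Il5 and Il4 (0.78 ± 1.06), Il13 and Rad50 (0.33 ± 0.46), Rad50 and Kif3a (0.10 ± 0.45), Kif3a and Il3 (1.32 ± 2.53), and Il3 and P4ha2 (0.83 ± 1.92). In all, 38 of the 45 pairs had 1 direction in every library, and adjusted p in the exact sign-flip test was 0.296 for these and up to 1 for the rest. The order of Il13 against Rad50 and Kif3a depends on length: without division by it, Il13 was lower by 1.79 and 1.11 on the log2 scale, in 3 of 3 libraries.

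**Figure D2:**
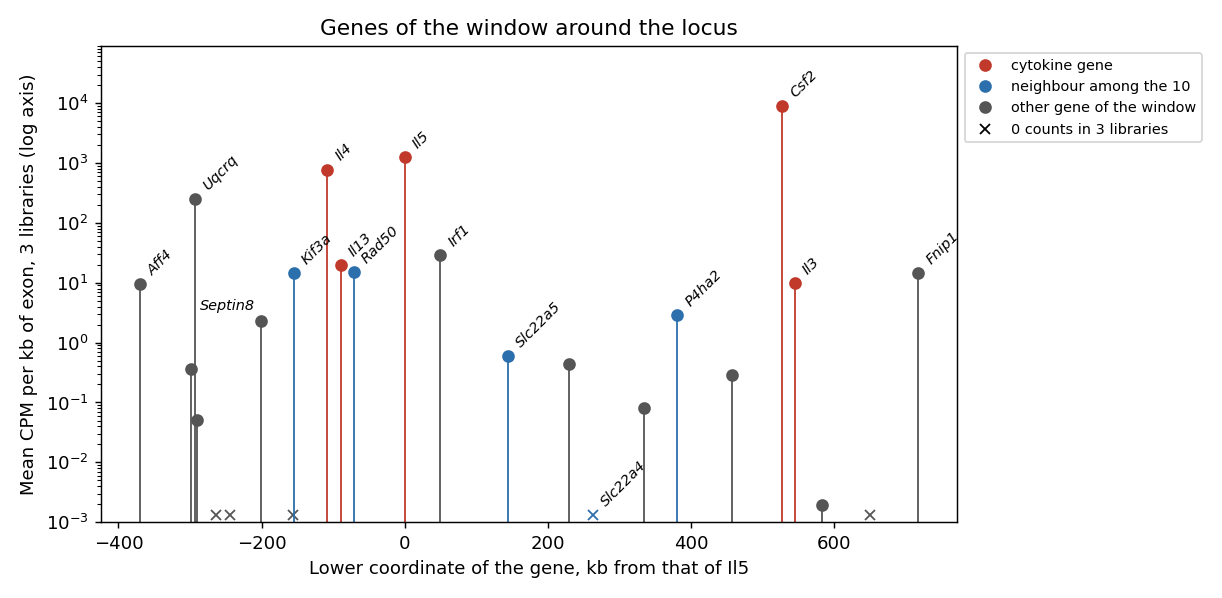
Mean level over 3 libraries, as CPM per kb of exon on a log axis, of the genes of the window that have an exon length, by the distance of their lower coordinate from that of Il5 in kb. Csf2, Il5 and Il4 rise above all other genes of the window, and genes at 0 counts are drawn as crosses at the foot.

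The wider window, from 200 kb below Kif3a to 200 kb above Il3, held 27 genes of the table, of which 13 were detected (48.1%). Of these 13, 7 were the members themselves. Of the 17 other genes of the window, 6 were detected, beside 31.1% of all genes and 38.0% of protein-coding genes. The 6 detected genes that are not among the members were Uqcrq, Aff4, Fnip1, Irf1, Gm12216 and Septin8. Uqcrq, a subunit of mitochondrial complex III, had the highest level of these, with 426, 537 and 408 CPM (249.6 CPM per kb on average). Irf1, an interferon-responsive transcription factor that lies between Il5 and Slc22a5, had 116, 99.1 and 130 CPM (28.9 CPM per kb). The noncoding gene Gm12216, next to Irf1, had 14.3, 25.1 and 16.0 CPM and no exon length. Aff4, a scaffold of the super elongation complex, had 9.43 CPM per kb on average and Fnip1, a folliculin partner, 14.4, while the septin gene Septin8 had 2.29. Acsl6, the gene beyond Il3, had 1 count in all. No gene of the window other than Csf2, Il5 and Il4 exceeded 249.6 CPM per kb on average. Uqcrq and Irf1 lay above Il13 in mean CPM per kb, and Aff4, Fnip1 and Septin8 below it.

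**Figure D3:**
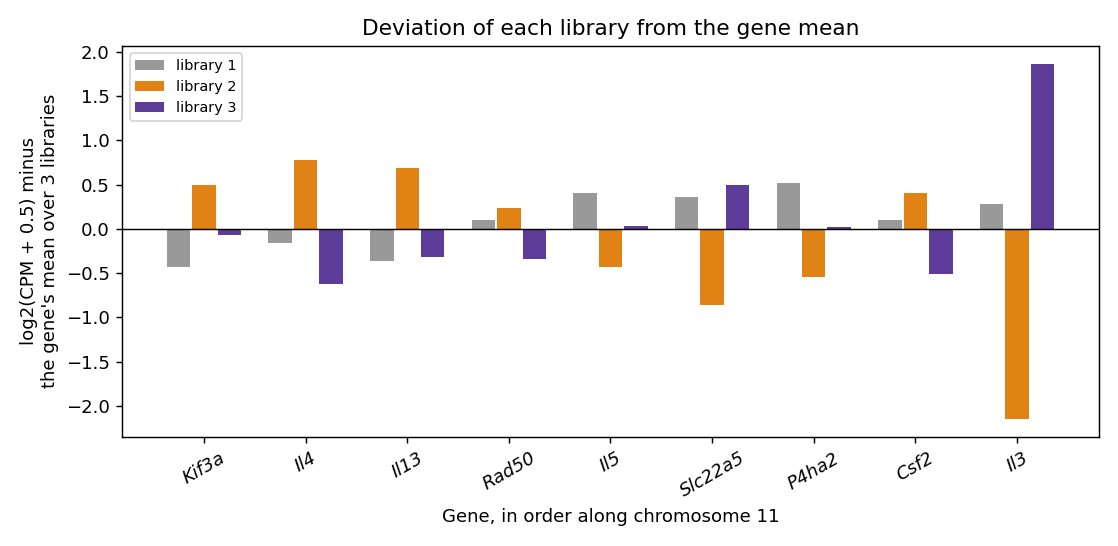
Deviation of each library from the gene's own mean, on the log2(CPM + 0.5) scale, for the 9 members with counts. The bars of library 2 point up for Kif3a, Il4, Il13, Rad50 and Csf2 and down for Il5, Slc22a5, P4ha2 and Il3.

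The members did not vary together across the libraries. In library 2, 5 of the 9 members with counts were at their highest (Kif3a, Il4, Il13, Rad50 and Csf2) and the other 4 at their lowest (Il5, Slc22a5, P4ha2 and Il3). The first 4 of these genes along the chromosome, from Kif3a to Rad50, were all in the first set, and Il5, 13.5 kb beyond Rad50, was in the second. Over all 9175 genes tested for variability, 33.5% were highest in library 2, 36.9% were lowest there and 70.5% were one or the other. Il5 and P4ha2 were highest in library 1 (32.2% of all genes) and Slc22a5 and Il3 in library 3 (34.2%). Kif3a and Il13 were lowest in library 1 (29.2% of all genes), and Il4, Rad50 and Csf2 in library 3 (33.8%). Il13 had 17.5 and 18.1 CPM in libraries 1 and 3, and without TMM scaling its lowest library was another. These counts for library 2 were the same with library size alone and with DESeq2 size factors. Il5 and P4ha2, 380.1 kb apart from start to start, had the smallest SD of the 45 pairs, with a difference of 8.56 ± 0.05 on the log2(CPM per kb + 0.5) scale. That SD was 0.11 with a pseudocount of 0.1 and 0.12 without division by length.

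Markers of other cell types also differed between the libraries, though not all in the same library. Of all genes tested for variability, 33.5% were highest in library 2 and 36.9% lowest there, so either place is common. The 6 NK cell and ILC1 markers of the list summed to 8.47, 243 and 55.0 CPM, most of it Gzma (7.19, 229 and 48.2 CPM). Klrb1c, which encodes the NK1.1 antigen gated out in the sort, had 1, 115 and 77 counts, and the perforin gene Prf1 had 0, 99 and 6, so both were also highest in library 2. Ncr1 had 28, 37 and 93 counts and was highest in library 3, and the transcription factor genes Eomes and Tbx21 had 1 count each, in library 2. The 13 markers of mast cells, basophils and eosinophils, which can also make IL-4 and IL-13, summed to 48.4 to 62.1 CPM. Of these, 4 were detected, and they differed in course. Fcer1a, the IgE receptor alpha chain, had 4.77, 20.0 and 4.61 CPM per kb, and Prg2, an eosinophil granule protein, 1.21, 14.7 and 10.7, so both were highest in library 2 as were Il4 and Il13. Cpa3, the mast cell carboxypeptidase, had 11.9, 3.11 and 7.51 CPM per kb, and Hdc, the histamine-forming enzyme, 5.99, 1.77 and 3.85, so both were lowest in library 2. Mcpt1, Mcpt2, Mcpt4, Mcpt8, Tpsb2, Ms4a2, Epx and Siglecf had 0 counts in every library, and Cma1 had 1 count. The 7 T cell markers summed to 20.8 to 25.4 CPM, of which 3 were detected (Cd3d, Cd3e and Trac), and Cd4 and Cd8a had 1 count each. B and plasma cell markers summed to 12263, 34006 and 62304 CPM, with 6 of 9 detected and Ms4a1 and Pax5 among those at 0. Most of the sum was Igkc (4822, 18010 and 34158 CPM), Jchain (5527, 13790 and 18473) and Igha (1742, 2040 and 9391). In the edgeR variability test described below, 5 of the 6 had an unadjusted p under 0.05, against 4.53% of all genes. At an adjusted p under 0.05 there were 0. The part of these transcripts in the members' differences was not tested. All 10 ILC2 markers were detected, with sums of 12313 to 16026 CPM. The share detected was 31.1% over all genes and 38.0% over protein-coding genes, and the marker lists were chosen with earlier results known. Id2 was the highest of them per kb (3192 ± 614 CPM per kb). The genes of the sort antigens differed widely in level. Klrg1 had 922 ± 166 CPM per kb, Il7r 227 ± 41.8 and Ptprc (CD45) 25.6 ± 4.94. Thy1 (CD90) was the lowest ILC2 marker with 9.43 ± 2.95, and Il1rl1, the IL-33 receptor gene, had 19.8 ± 7.68. In bulk libraries, fewer expressing cells and less RNA per cell cannot be told apart.

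**Figure D4:**
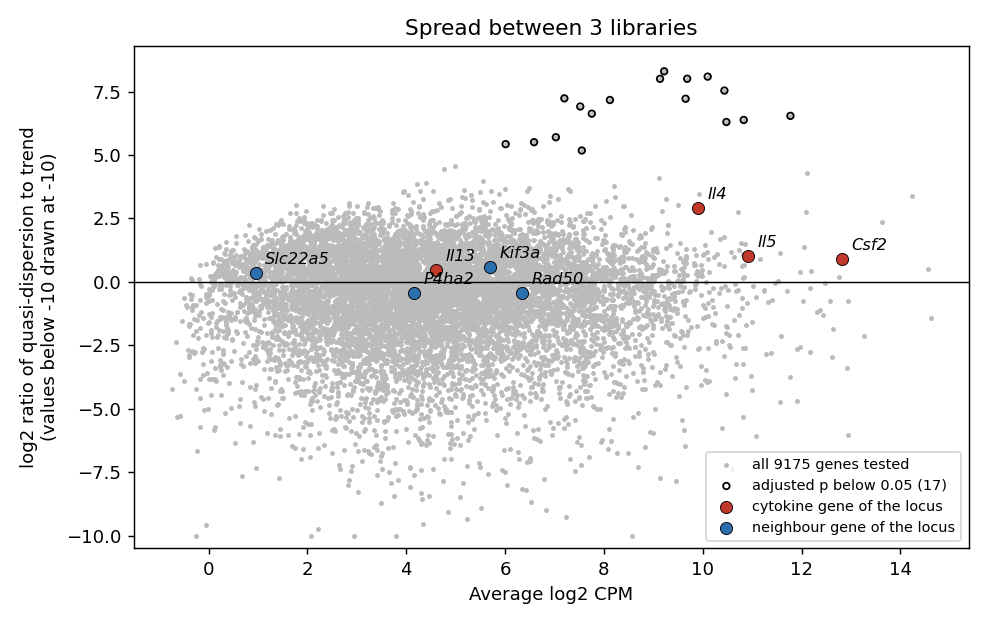
Spread between the 3 libraries for the 9175 genes tested, as the log2 ratio of a gene's quasi-dispersion to the trend (vertical) at its average log2 CPM (horizontal). Il4 lies at 2.91, the highest of the 8 members tested, and below the 17 genes with an adjusted p under 0.05.

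The spread between libraries was then tested against genes of similar abundance with edgeR's quasi-dispersion F test. Of the 8 members that passed the filter on low counts (not Il3 and Slc22a4), 0 were more variable than the trend at an adjusted p under 0.05, against 0.185% of all genes tested. At an unadjusted p under 0.05 there was 1 member, Il4, against 4.53% of all genes. DESeq2 dispersion outliers and limma variances also called 0 members, which does not show that the members varied as little as other genes. Il4 had 785, 1504 and 566 CPM (952 ± 491), and library 2 stood above the other two. Its log2 ratio to the trend was 2.91 (edgeR adjusted p = 0.960), at the 99.1th percentile of all genes tested. Without library 2 the log2 ratio was 0.78 (edgeR adjusted p = 0.991) and Il4 was no longer under an unadjusted 0.05. The other cytokine genes had log2 ratios of 1.03 (Il5), 0.89 (Csf2) and 0.45 (Il13). The neighbours had 0.59 (Kif3a), 0.35 (Slc22a5), -0.42 (Rad50) and -0.44 (P4ha2). The median of the 8 members was 0.52, beside -0.43 over all genes tested. Il3 was tested only when the filter was changed or library 2 left out. It had an unadjusted edgeR p under 0.05 where genes needed a mean of 5 CPM, and was not called there. Csf2 was also under an unadjusted 0.05 with a robust prior in edgeR, as were 408 of 9175 genes. Without library 3 the same held for Il5, beside 504 of 9366 genes. Neither was called in these settings.

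For the 4 detected cytokine genes, the genes with the most similar course over the 3 libraries were sought among the 6134 genes whose mean reached 10 CPM. Likeness was the root mean square distance between log2(CPM + 0.5) values centred on each gene's mean, and with 3 points a close course is common. For Csf2 they were Ramp1 (distance 0.0046), which encodes a subunit of the receptor for the neuropeptide CGRP, Hlf (0.0052), a PAR bZIP transcription factor, and S100pbp (0.0058). For Il4 they were E130102H24Rik (0.021), the ubiquitin ligase gene Rnf213 (0.027) and Il18r1 (0.032), a chain of the IL-18 receptor. For Il5 they were Msl2 (0.0056), Ctso (0.0088) and Arid1a (0.0095), and for Il13 Efcab2 (0.0080), Il1b (0.012) and Hspe1 (0.013). Among the members themselves, Il13 was closest to Kif3a (0.18) and Il4 (0.22), and Il5 to P4ha2 (0.094), whereas Il4 and Il5 were 0.86 apart. Among the 6134 genes, P4ha2 ranked only 127th in likeness to Il5, and Kif3a 161st in likeness to Il13.

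**Figure D5:**
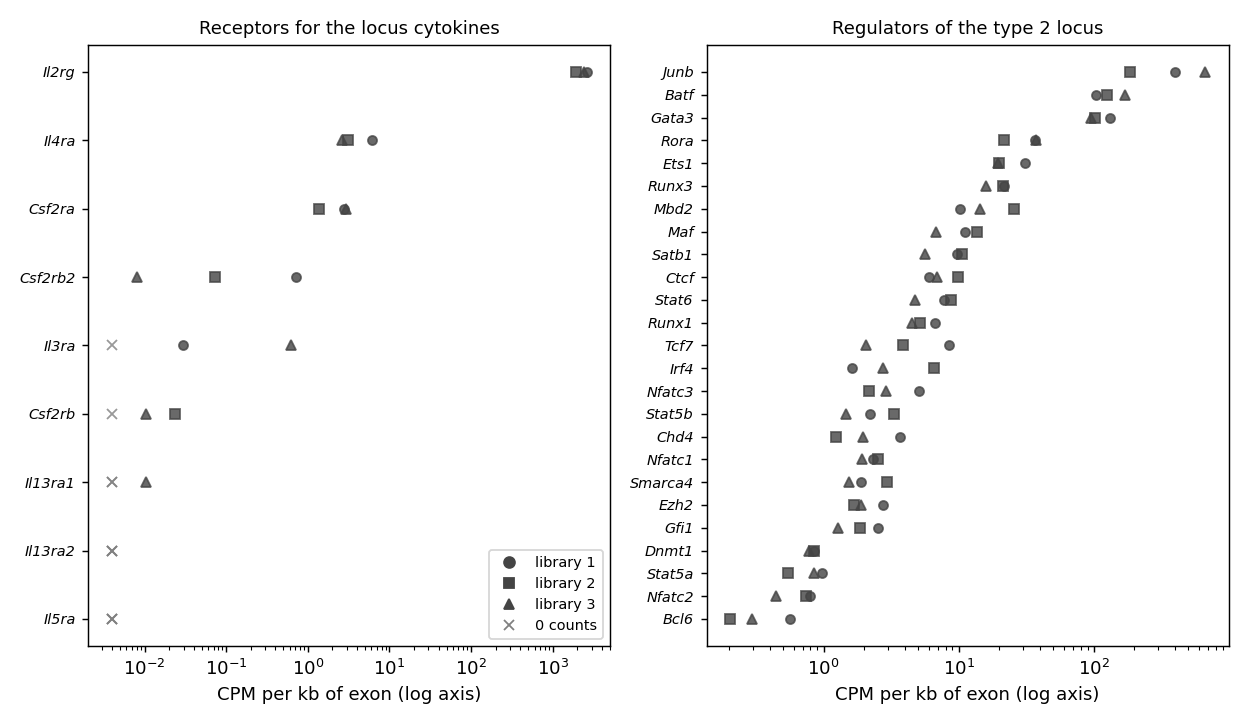
Level of receptor genes for the locus cytokines (left) and of transcription and chromatin regulators of the locus (right) in each library, as CPM per kb of exon on a log axis. Only Il2rg of the receptors is high, while all 25 regulators have counts in every library.

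Of 9 receptor genes for the locus cytokines, 3 were detected, a share near the 31.1% of all genes and 38.0% of protein-coding genes. Il2rg, the common gamma chain that pairs with the IL-4 receptor, was the highest with 2316 ± 341 CPM per kb. Il4ra, the chain shared by the IL-4 and IL-13 receptors, followed with 6.14, 3.12 and 2.59 CPM per kb (3.95 ± 1.92). Csf2ra, the GM-CSF-specific chain, was the lowest detected with 2.36 ± 0.862. Il5ra and Il13ra2 had 0 counts in every library, and Il13ra1 had 1 count. The beta chain that IL-3, IL-5 and GM-CSF share, Csf2rb, was named after its values were seen and had 0, 0.0234 and 0.0105 CPM per kb; reads could be divided between it and its paralogue Csf2rb2 (0.726, 0.0720 and 0.00809).

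All 25 regulators of the locus were detected, beside 31.1% of all genes and 38.0% of protein-coding genes. The list was chosen with earlier results known, so this share is not a finding about regulators. The AP-1 subunit Junb was the highest with 402, 185 and 664 CPM per kb (417 ± 240), lowest in library 2 as were Il5 and Il3. Batf, another AP-1 family member, had 105, 125 and 170 (133 ± 33.4), and the repressor Bcl6 was the lowest with 0.356 ± 0.188. Gata3, named for its role after the values were seen, had 132, 103 and 95.8 CPM per kb (110 ± 19.2). It was highest in library 1, as was Il5 but not Il4, Il13, Csf2 or Il3. It was lowest in library 3, as were Il4 and Csf2 but not Il5, Il13 or Il3. None of the 25 passed the edgeR variability test at an adjusted p under 0.05, against 0.185% of all genes, and 1, Junb, had an unadjusted p under 0.05 (adjusted p = 0.597), against 4.53% of all genes. Their median log2 ratio to the trend was -0.30, beside -0.43 over all genes.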

How the data were processed

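Bulk RNA sequencing of 3 ILC2 libraries was analysed from raw read counts per Entrez gene ID, as deposited by the authors without normalization. The kit was SMARTer Ultra Low Input, per the labels' protocols. STAR 2.3.0, CASAVA 1.8.2 and the build mm10 are named per the submitters' processing notes. How reads were counted is not given in the sources used here.

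Of 27179 IDs, 25275 were named from RefSeq (GRCm38.p6). IDs without a name held 0.186% to 0.242% of counts and stayed in the totals. Exon lengths came from GENCODE M21, for 21572 IDs. CPM used TMM-normalised library sizes (edgeR 4.0.16, R 4.3.3). Logs were log2(value + 0.5). Pairs of members were compared within libraries by an exact two-sided sign-flip test, with Benjamini-Hochberg adjustment over 45 pairs. Variability was tested in edgeR (filterByExpr, minimum count 10, intercept only) by the quasi-dispersion over its trend, with adjustment over 9175 genes. DESeq2 1.42.0 and limma 3.58.1 were alternatives. Counts of each pair of libraries differed by 133 to 226 in chi-square per degree of freedom, so no library is a copy of another.

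The members, lists and tests were chosen with earlier results of these data known. Named were all members, the detected genes of the window, and of the receptor, regulator and cytokine lists the 2 highest, the lowest detected and those without counts. Marker genes were named after their values were seen. For Csf2, Il4, Il5 and Il13 the 3 genes with the most similar course were also named. No label ties a library to a mouse, so the spread may be partly technical.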

Additional observations from a re-analysis of the deposited data

How the results depend on the processing

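Library size without TMM, DESeq2 size factors and pseudocounts of 0.1 and 1 left all 45 pairs of members in their direction, as part of 397 of 405 comparisons over 9 settings. The 8 exceptions fell on pairs of low members. Without division by length, Il3 minus P4ha2 was -2.13, Il13 minus Rad50 -1.79 and Il13 minus Kif3a -1.11 on the log2 scale. With coding in place of exon length, a setting added after the data were seen, Il3 minus P4ha2 was -0.51 and Rad50 minus Kif3a -0.16. Without library 1, Rad50 minus Kif3a was -0.16, without library 2 Kif3a minus Il3 was -0.10, and without library 3 Il3 minus P4ha2 was -0.15. Leaving out each library gave ranges of -0.16 to 0.23, -0.10 to 2.34 and -0.15 to 1.77 for these 3 pairs. The difference of medians between cytokine and neighbour genes was 7.64, and became 5.61 without division by length, 6.21 with means and 6.13 with the detected members alone, where fewer low members enter. Leaving out each library gave 7.16 to 7.89 for it and a cytokine share of 0.917% to 1.15%. It also gave 7 to 9 members detected, 13 to 15 window genes detected and 40 to 41 pairs with 1 direction. These 3 counts cannot fall when a library is left out, because fewer libraries then have to meet the rule, so they do not test robustness. No member passed the variability test in any setting. Over all genes the count was 17, against 30 where genes needed a mean of 5 CPM, 31 without library 1 and 0 with a robust prior (408 at an unadjusted p under 0.05), and the cause was not tested. No paired analysis was possible because all libraries belong to 1 group. Coding length taken from protein sequences was not run. Depth limits Slc22a4 to a bound and leaves Il3 in library 2 with 7 counts.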

Other observations

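The locus cytokines can be set beside 16 other cytokine genes of lymphoid cells, none of which lies in the locus. Of these, 12 were detected, beside 31.1% of all genes and 38.0% of protein-coding genes, in a list chosen with earlier results known. Areg, which encodes the epithelial growth factor amphiregulin, was the highest with 868, 819 and 766 CPM per kb (818 ± 51.0, SD, n = 3), and Ltb, the lymphotoxin beta chain, followed with 509 ± 89.4. Both lay below Csf2 and Il5 in 3 of 3 libraries. Areg was more even between the libraries than Il4, which it exceeded in libraries 1 and 3. Tgfb1 was the lowest detected, with 3.14 ± 1.14, and Il21 and Il31 had 0 counts in every library. Chosen after their values were seen, Il6 had 241, 202 and 118 CPM per kb and Il2, the T cell growth factor, 89.8, 120 and 78.0, so both exceeded Il13 in every library. Tnf had 3.10, 0 and 2.08. None of the 12 tested passed the edgeR variability test at an adjusted p under 0.05, against 0.185% of all genes tested. Il17f alone had an unadjusted p under 0.05 (adjusted p = 0.960), against 4.53% of all genes.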
